A study of Equus caballus with 17 samples.

Results

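The miR-183 cluster is a group of 3 neighbouring miRNAs, miR-183, miR-96 and miR-182, followed here in horse (Equus caballus) testis and sperm. Its members, eca-miR-183, eca-miR-96 and eca-miR-182, were chosen by name from a small RNA count table, with 1 entry each, and are 3 of 274 annotated mature miRNAs in that table. They are 3 of 1763 entries once predicted hairpins are included. In mammals the members are cut from a shared primary transcript. In the RefSeq annotation of the horse assembly TB-T2T, MIR182, MIR96 and MIR183 follow each other with no other gene between them. NRF1 and UBE2H are the nearest protein-coding genes on either side.

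The cluster is best known from sensory organs, where it is abundant in photoreceptors and in hair cells of the inner ear. A changed miR-96 causes hearing loss in human and mouse. In human cells, messages for FOXO transcription factors have been reported as targets of the cluster. The members have similar but not identical seeds, the bases near the 5′ end that pair with targets. Their sequences are in none of the sources used here and are not printed.

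The libraries were Infant testis (31a, 31b and 30), Pre-puber testis (3a, 3b and 14), Puber testis (10, 11 and 19), Adult testis (13, 20, 33 and 4) and Sperm (1, 2, 3 and 4). The labels give tissue and stage, and no treatment, genotype or age in years. No cell sorting is mentioned. Libraries that share a number, such as 31a and 31b, may come from 1 animal, and nothing in the labels says that the others are separate animals. The p-values therefore measure only the spread between these libraries, which may be technical.

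Counts of annotated miRNAs ranged from 1481718 in Sperm 3 to 13117711 in Pre-puber 3a, and Sperm libraries held at most 2261418. Pre-puber 14 stood apart from the other Pre-puber libraries in the germ cell miRNA miR-34c, with 2621 CPM (library-scaled counts, relative to annotated counts after TMM scaling) against 37.7 CPM in 3a and 70.5 CPM in 3b. The tests of the members and the ratios that use Pre-puber libraries are therefore also given without it. Means, shares, correlations and the results for other miRNAs include it. Of the marker lists, germ cell miRNAs (miR-34b-5p, miR-34c, miR-449a and miR-449b) summed to 17.6 to 53.1 CPM in Infant libraries, 45.1 to 3296 in Pre-puber ones, 11951 to 22808 in Puber ones and 40216 to 50439 in Adult ones. Stromal miRNAs (miR-145, miR-199a-5p and miR-199b-5p) summed to 32328 to 51208, 31496 to 37770, 23655 to 31471 and 14974 to 18816 CPM in the same order. In tissue libraries, fewer cells of a type and less RNA per cell cannot be told apart.

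In testis the mean of each member was low in Infant, highest in Pre-puber, lower in Puber, and low again in Adult. The step between Pre-puber and Puber was not called for any member and rested largely on Pre-puber 3b, without which the log2 fold change of Puber against Pre-puber ran from -0.42 to 0.039. miR-182 was the most abundant member: Infant libraries averaged 41.8 ± 28.7 CPM, Pre-puber 236 ± 159.7, Puber 147 ± 26.2 and Adult 58.3 ± 42.4 (SD, n = 3, 3, 3 and 4). miR-183 averaged 16.4 ± 10.1, 91.7 ± 62.8, 44.0 ± 5.62 and 15.5 ± 7.02 CPM in the same order. miR-96 was the scarcest, with 3.37 ± 2.15, 18.1 ± 11.7, 8.47 ± 0.93 and 2.66 ± 0.66 CPM. The order of stages by mean was the same for miR-183 and miR-96 (Pre-puber, Puber, Infant, Adult), while for miR-182 Adult stood above Infant. Infant and Adult, neighbours in that order, overlapped for each member, and Pre-puber and Puber overlapped for miR-182.

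**Figure D1:**
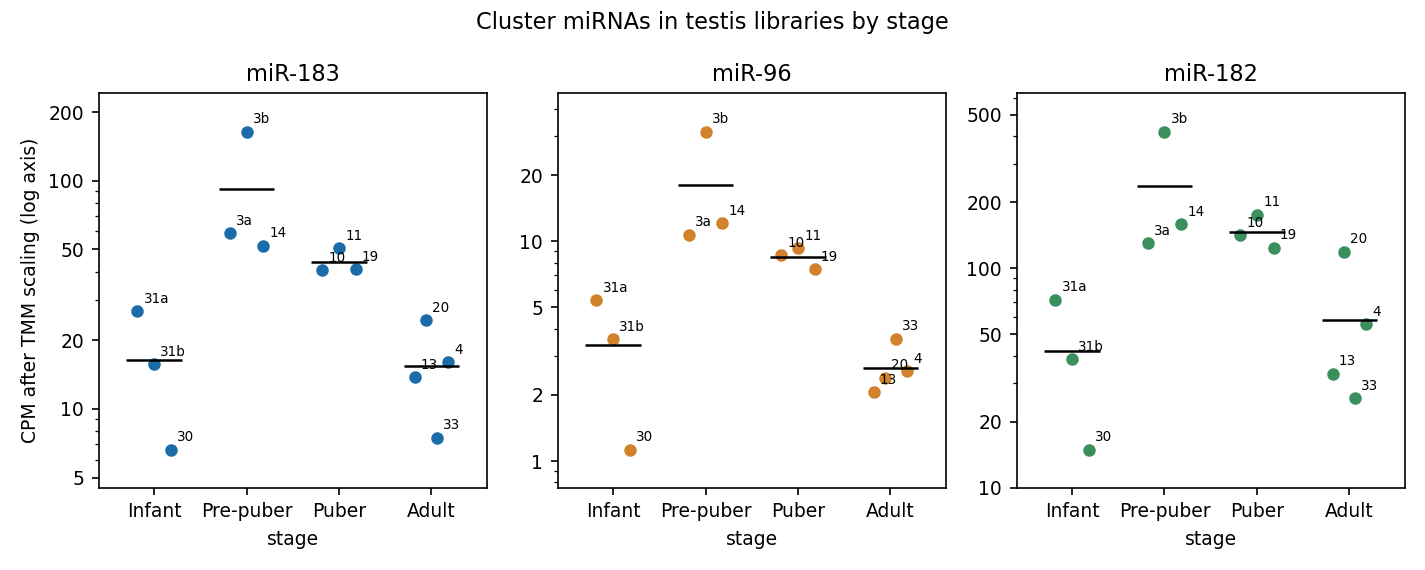
Level of miR-183, miR-96 and miR-182 in the 13 testis libraries by stage, in CPM after TMM scaling on a log axis. Points are libraries labelled by number and bars are stage means. Pre-puber 3b is the highest library in every panel, at 419.7 CPM for miR-182.

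The members were of modest abundance. Among the 274 annotated miRNAs ranked by count, miR-182 stood at positions 104 to 123 (Infant), 64 to 92 (Pre-puber), 90 to 94 (Puber), 96 to 125 (Adult) and 62 to 76 (Sperm). Of annotated counts, the cluster held 0.00396 ± 0.0021% (Infant), 0.0323 ± 0.019% (Pre-puber), 0.0211 ± 0.0041% (Puber), 0.00925 ± 0.0037% (Adult) and 0.0261 ± 0.014% (Sperm; SD, n = 3, 3, 3, 4 and 4). Counting error was largest for miR-96, which had 5 to 26 counts in Adult and 12 to 28 in Sperm. Its 5 counts in Adult 20 have an exact 95% Poisson interval of 1.62 to 11.7 counts, which covers counting error only.

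Over the 4 testis stages, the 3 members changed by edgeR's quasi-likelihood F test, with Benjamini-Hochberg adjusted p = 0.00266 for miR-96, 0.00345 for miR-183 and 0.0183 for miR-182. In all, 88 of 184 tested miRNAs changed (47.8%), so a change over stages was common. By p the members stood at positions 47, 51 and 68 of 184. Without Adult 13, Adult 33 or Adult 4 the adjusted p of miR-182 was 0.0635, 0.0532 or 0.0527, and the other 2 members were still called. Without Pre-puber 14, all 3 were, among 94 of 184 miRNAs called.

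All 3 members rose in Pre-puber testis relative to Infant testis. miR-182 had 129.8 CPM in Pre-puber 3a, 419.7 in 3b and 158.8 in 14, against 72.0, 38.5 and 14.9 CPM in Infant 31a, 31b and 30. miR-183 had 59.1, 164.1 and 51.9 CPM in those Pre-puber libraries, against 26.8, 15.7 and 6.63 CPM in Infant 31a, 31b and 30. miR-96 had 10.7, 31.5 and 12.1 CPM in the Pre-puber libraries, against 5.40, 3.58 and 1.13 CPM in the Infant libraries. Pre-puber 3b was the highest Pre-puber library and Infant 30 the lowest Infant library for each member, and the groups did not overlap.

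The folds of the 3 members were close to each other. miR-182 rose 5.65-fold (log2 fold change 2.50 ± 0.69 SE, edgeR adjusted p = 0.0179). miR-183 rose 5.60-fold (2.48 ± 0.60, edgeR adjusted p = 0.00989) and miR-96 rose 5.39-fold (2.43 ± 0.59, edgeR adjusted p = 0.00989). Of 184 tested miRNAs, 44 were called (23.9%), of which 29 were higher (15.8%), and 34 had higher Pre-puber libraries with no overlap (18.5%). The median log2 fold change was 2.48 over the members and 0.16 over all tested miRNAs.

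Without Pre-puber 14, the 3 members were still called, with log2 fold changes from 2.65 to 2.76, and without Pre-puber 3b only miR-183 was (log2 fold change 1.76, edgeR adjusted p = 0.0449, against 0.0510 for miR-96 at 1.77 and 0.0715 for miR-182 at 1.79). The call of miR-182 also ended without Infant 31b (adjusted p = 0.065) or Infant 30 (0.0514), its log2 fold change was 3.15 without Infant 31a, and none of the 3 was called in an edgeR fit of these 6 libraries alone (adjusted p from 0.0546 to 0.0707).

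Germ cell miRNAs moved in this comparison too, with 3 of 4 tested called higher and a median log2 fold change of 4.64, and their part in the cluster's rise was not tested. These calls include Pre-puber 14, whose germ cell miRNA sum was 3296 CPM, and are not given without it. The sum in Pre-puber 3a, at 45.1 CPM, lay within the Infant range of 17.6 to 53.1 CPM. Pre-puber 3a and 3b had the lower germ cell miRNA sums, and Pre-puber 3b had the highest level of each cluster member. Pre-puber 3a was below Pre-puber 14 for miR-182 (129.8 against 158.8 CPM) and miR-96 (10.7 against 12.1), and above it for miR-183 (59.1 against 51.9). No stromal (3 tested), blood (3), endothelial (1) or spermatogonial (2) miRNA of the lists was called. Of the other sensory organ miRNAs, 2 were tested, and miR-211 fell.

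Levels in Puber testis were close to or below those in Pre-puber testis. miR-183 had 40.4, 50.5 and 41.1 CPM in Puber 10, 11 and 19, below the lowest Pre-puber library at 51.9 CPM, and miR-96 had 8.67, 9.28 and 7.46 CPM, below 10.7 CPM. For miR-182 the Puber libraries (141.5, 175.6 and 124.1 CPM) lay within the range of the Pre-puber libraries or just under it. Of all tested miRNAs, 25 were lower in Puber with no overlap (13.6%), miR-183 and miR-96 among them. The Puber libraries were close together for each member, with the highest at most 1.42 times the lowest, while in Pre-puber the highest was 2.94 to 3.23 times the lowest.

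No member was called between Puber and Pre-puber by edgeR, where 2 of 184 miRNAs were (1.09%). The log2 fold changes were -1.06 ± 0.58 SE for miR-183 (adjusted p = 0.335), -1.09 ± 0.56 for miR-96 (adjusted p = 0.326) and -0.68 ± 0.66 for miR-182 (adjusted p = 0.615). None had an unadjusted p under 0.05, which 34 of all tested miRNAs had (18.5%), and DESeq2 and limma-voom called 0 of the 3. None was called when any 1 of these 6 libraries was left out. Without Pre-puber 14 the log2 fold changes were -1.32 for miR-183, -1.29 for miR-96 and -0.88 for miR-182. Without Pre-puber 3b they were -0.33 for miR-183, -0.42 for miR-96 and 0.039 for miR-182. With predicted hairpins in the fit (916 entries) all 3 members were called lower, at -2.996 for miR-183 (edgeR adjusted p = 0.0153), -2.99 for miR-96 (0.0228) and -2.57 for miR-182 (0.0261), at a median over all entries of 1.06. That fit called 198 of 916 entries.

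Between Adult and Puber testis, all 3 members had lower values in Adult with no overlap in their libraries, but none was called. miR-183 had 13.8, 24.5, 7.48 and 16.1 CPM in Adult 13, 20, 33 and 4, against 40.4, 50.5 and 41.1 CPM in Puber 10, 11 and 19. miR-96 had 2.06, 2.40, 3.60 and 2.56 CPM in the Adult libraries, against 8.67, 9.28 and 7.46 CPM in the Puber libraries. miR-182 had 33.0, 119.0, 25.6 and 55.6 CPM in the Adult libraries, against 141.5, 175.6 and 124.1 CPM in the Puber libraries. Adult 20 was the highest Adult library for miR-183 and miR-182 and close to the lowest Puber library for miR-182.

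The log2 fold changes of Adult against Puber were -1.65 ± 0.54 SE for miR-96 (edgeR adjusted p = 0.101), -1.52 ± 0.54 for miR-183 (0.121) and -1.34 ± 0.61 for miR-182 (0.254). edgeR called 0 of 184 miRNAs here (0%). The 3 members were among 34 with an unadjusted p under 0.05 (18.5%), of which 27 were lower (14.7%), and libraries were lower with no overlap for 28 (15.2%). DESeq2 and limma-voom called 0 of the 3 members, and an edgeR fit of these 7 libraries alone called miR-183 and miR-96. That fit called 19 of 176 miRNAs.

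Adult against Pre-puber testis spans both of these steps, and all 3 members fell. miR-96 fell by 2.74 ± 0.55 SE on the log2 scale (edgeR adjusted p = 0.00361) and miR-183 by 2.58 ± 0.55 (adjusted p = 0.00519), with no overlap between the libraries. miR-182 fell by 2.03 ± 0.62 (adjusted p = 0.029), and its highest Adult library, Adult 20 at 119.0 CPM, lay just under its lowest Pre-puber library at 129.8 CPM. Here 51 of 184 miRNAs were called (27.7%), of which 28 were lower (15.2%), and 34 were lower with no overlap (18.5%). The median log2 fold change was -2.58 over the members and -0.07 over all tested miRNAs. Without Pre-puber 14 the 3 members were still called, with log2 fold changes from -2.95 to -2.26, among 70 of 184 miRNAs called.

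The size of these falls depended on Pre-puber 3b and on the entries fitted. With predicted hairpins in the fit they were -4.86 for miR-183, -4.93 for miR-96 and -4.23 for miR-182 on the log2 scale, all called, at a median over all entries of 1.23. That fit called 407 of 916 entries. Leaving out Pre-puber 3b gave -1.87 on the log2 scale for miR-183, -2.08 for miR-96 and -1.33 for miR-182, whose call ended (edgeR adjusted p = 0.131). The call of miR-182 also ended without Adult 13, Adult 33 or Adult 4 (adjusted p from 0.0711 to 0.0865), with the libraries sharing a title number summed (0.068) or in a fit of these groups alone (0.0614), and its log2 fold change was -2.64 without Adult 20. Stromal miRNAs moved in the same direction, with 2 of 3 called lower, while the 4 tested germ cell miRNAs were called higher, and their part in the falls was not tested.

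Adult and Infant testis, the ends of the series, overlapped for each member. miR-182 had 25.6 to 119.0 CPM in Adult (median 44.3) and 14.9 to 72.0 CPM in Infant (median 38.5). The log2 fold changes were 0.47 ± 0.62 SE for miR-182 (edgeR adjusted p = 0.534), -0.10 ± 0.54 for miR-183 (0.874) and -0.31 ± 0.55 for miR-96 (0.653), and none had an unadjusted p under 0.05. DESeq2 and limma-voom called 0 of the 3. Among all 184 tested miRNAs, 95 were called (51.6%) and 104 had an unadjusted p under 0.05 (56.5%). The sign was not settled: with no scaling beyond the library total the log2 fold changes were 1.37, 0.86 and 0.75 for miR-182, miR-183 and miR-96, with miR-182 called (edgeR adjusted p = 0.0411), at a median over all miRNAs of 0.82 in place of -0.14. That setting called 105 of 184 miRNAs. With predicted hairpins in the fit the members' log2 fold changes were -1.23 for miR-182 (edgeR adjusted p = 0.0887), -1.86 for miR-183 (0.0145) and -2.05 for miR-96 (0.0188). So miR-183 and miR-96 were called lower there, at a median over all entries of 5.64. A call was the usual outcome in that fit, with 832 of 916 entries called.

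Puber against Infant testis gave higher Puber libraries with no overlap for the 3 members, without a call. The log2 fold changes were 1.82 ± 0.68 SE for miR-182 (edgeR adjusted p = 0.0509), 1.43 ± 0.58 for miR-183 (0.0715) and 1.34 ± 0.58 for miR-96 (0.086). All 3 had an unadjusted p under 0.05, DESeq2 called 3 and limma-voom 2 of them, and without Infant 31a edgeR called 3. These settings called 74, 70 and 63 of 184 miRNAs in that order. Of 184 tested miRNAs, 67 were called (36.4%), 85 had an unadjusted p under 0.05 (46.2%), 47 of these higher (25.5%), and 54 were higher with no overlap (29.3%). With predicted hairpins in the fit the log2 fold changes were 0.42 for miR-182, 0.0016 for miR-183 and -0.11 for miR-96.

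**Figure D2:**
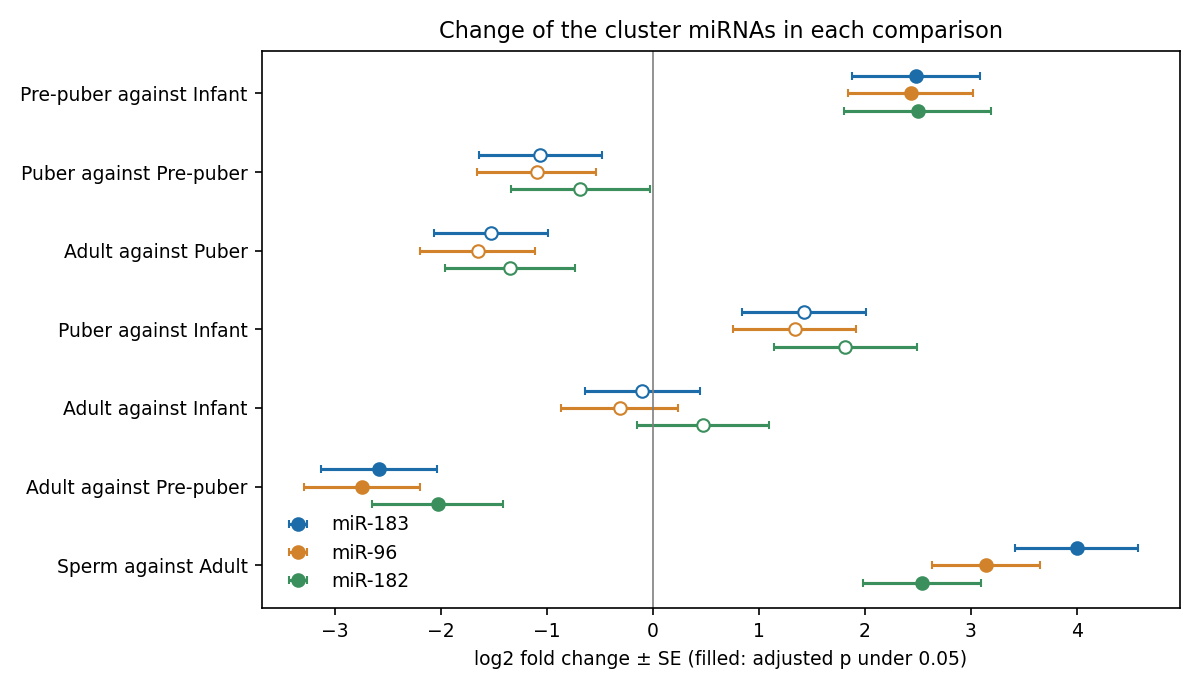
The log2 fold change of each member in 7 comparisons, with its standard error, where filled points have an edgeR adjusted p under 0.05. The members lie close together for Pre-puber against Infant, from 2.43 to 2.50, and farther apart for Sperm against Adult, from 2.54 to 4.00.

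All 3 members rose in Sperm relative to Adult testis. These 8 libraries were fitted and scaled apart from the younger testes, so Adult CPM differ from those above. Sperm RNA had a shorter DNase step and a phenol extraction, which cannot be told apart from the material. miR-183 had 109, 294, 185 and 143 CPM in Sperm 1, 2, 3 and 4, against 10.7, 16.5, 5.07 and 13.9 CPM in Adult 13, 20, 33 and 4. miR-96 had 8.77, 22.9, 22.2 and 18.5 CPM in the Sperm libraries, against 1.59, 1.62, 2.44 and 2.21 CPM in the Adult libraries. miR-182 had 169.6, 375, 330.2 and 112 CPM in the Sperm libraries, against 25.5, 80.2, 17.4 and 47.9 CPM in the Adult libraries. The groups did not overlap for any member after TMM scaling, and Sperm 2 was the highest library for each. Without TMM scaling, relative to annotated counts only, the groups overlapped for miR-182 and miR-96. There miR-182 had 54.5 CPM in Sperm 4 and 102.6 in Sperm 1, against 113.8 CPM in Adult 20. miR-96 had 5.31 CPM in Sperm 1 against 5.63 CPM in Adult 33. miR-183 still did not overlap, with its lowest Sperm library at 65.9 CPM and its highest Adult library at 23.4 CPM.

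**Figure D3:**
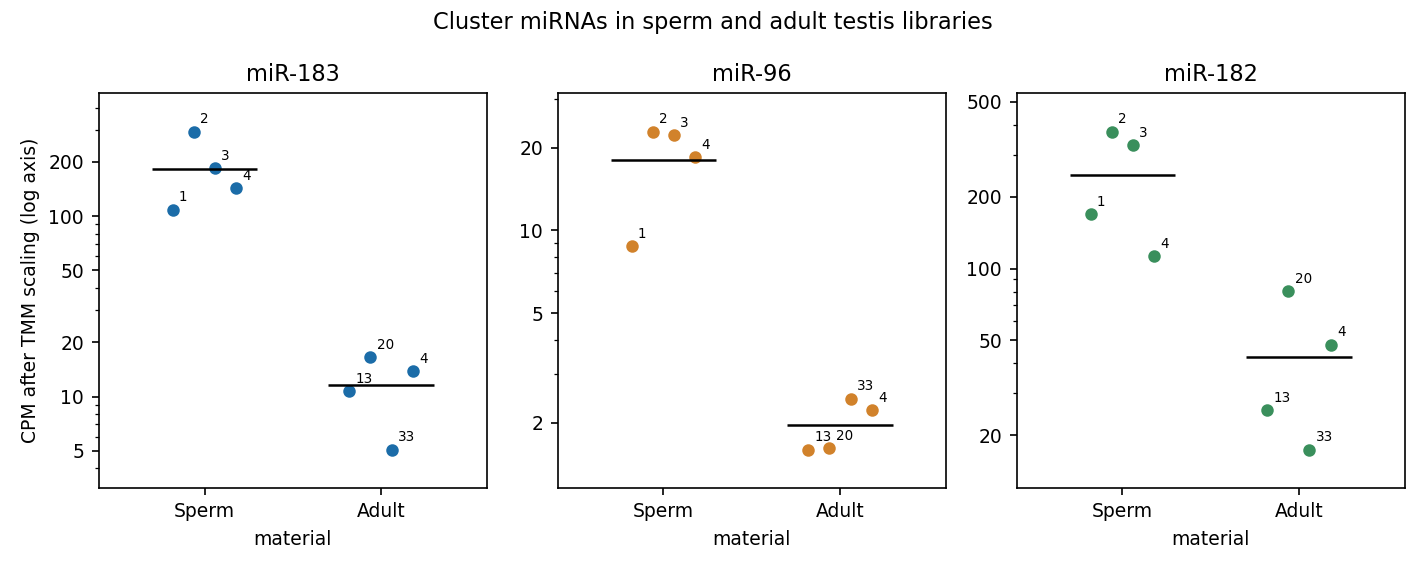
Level of miR-183, miR-96 and miR-182 in the 4 Sperm and 4 Adult libraries, in CPM after TMM scaling on a log axis. Points are libraries labelled by number and bars are means. The gap between the groups is wide for miR-183, where the lowest Sperm library is at 109 CPM and the highest Adult library at 16.5 CPM, and narrower for miR-182, where these are at 112 and 80.2 CPM.

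The fitted folds were not of one size, and ratios between members were tested apart from them. miR-183 rose 16.0-fold (log2 fold change 4.00 ± 0.58 SE, edgeR adjusted p = 1.2e-08), miR-96 8.84-fold (3.14 ± 0.51, edgeR adjusted p = 1.7e-07) and miR-182 5.80-fold (2.54 ± 0.55, edgeR adjusted p = 4.1e-05). A call was the usual outcome here: 132 of 162 tested miRNAs were called (81.5%), 68 of them higher (42%), and 63 were higher with no overlap (38.9%). The members stood at positions 51, 70 and 98 of 162 by p. The median log2 fold change was 3.14 over the members and 0.06 over all tested miRNAs.

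The size of these folds depended on scaling. TMM factors were 0.484 to 0.639 in Sperm and 1.42 to 2.30 in Adult libraries. With no scaling beyond the library total, the log2 fold changes were 2.46 for miR-183, 1.46 for miR-96 and 1.06 for miR-182, whose call ended (edgeR adjusted p = 0.0888), at a median over all miRNAs of -1.61. Relative to the median of all tested miRNAs under TMM, DESeq2-type, upper quartile or no scaling, miR-183 stood 3.91 to 4.07 higher, miR-96 3.06 to 3.09 and miR-182 2.45 to 2.66 on the log2 scale. Scaling moves a member and that median nearly together, so these narrow ranges do not show that the folds hold under each scaling. With predicted hairpins in the fit (783 entries), the log2 fold changes were 3.15, 2.08 and 1.63 for miR-183, miR-96 and miR-182, and all 3 were called. A call was the usual outcome there too, with 507 of 783 entries called.

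Sperm libraries had stromal sums of 65.8 to 152 CPM, against 10091 to 14697 CPM in Adult, with all 3 tested called lower. Endothelial miR-126-5p had 38.2 to 52.9 CPM in Sperm and 215 to 471 CPM in Adult. Germ cell miRNAs summed to 105383 to 360096 CPM in Sperm and 28816 to 38937 CPM in Adult, with 4 of 4 called higher. Blood miRNAs (miR-451, miR-150 and miR-142-5p) summed to 975 to 2285 CPM in Sperm and 244 to 1091 CPM in Adult. Of these only miR-451 was called higher, and their median log2 fold change was 0.015, against 0.058 over all tested miRNAs. Germ cell, blood, stromal and spermatogonial sums were highest in Sperm 2 among Sperm libraries, as were the cluster members. The endothelial value was highest in Sperm 4 and the sensory organ sum in Sperm 3. miR-191a held 15.6% of annotated counts in Sperm 2 and 37.8 to 51.7% in the other Sperm libraries. The part of any of these in the rise was not tested. Of the spermatogonial list, miR-146a rose, and of the sensory organ list miR-124 rose and miR-204b fell. The epithelial list (miR-200 family) and miR-202 had no entry among the annotated miRNAs used here.

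The ratio of miR-182 to miR-183 within a library does not depend on scaling, and it was lower in Sperm than in testis. It was 1.56, 1.27, 1.78 and 0.788 in Sperm 1, 2, 3 and 4, against 2.38, 4.83, 3.40 and 3.44 in Adult 13, 20, 33 and 4. These come from 232 and 149, 459 and 360, 268 and 150, and 85 and 108 counts of miR-182 and miR-183 in the 4 Sperm libraries. Sperm 4 was the one library of 17 in which miR-183 exceeded miR-182. Over the 13 testis libraries the ratio ran from 2.20 to 4.83, above every Sperm library.

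Between Sperm and Adult the mean log2 ratio of miR-182 to miR-183 was 0.37 ± 0.52 in Sperm and 1.77 ± 0.42 in Adult (SD, n = 4 each), a difference of -1.40, or 0.379 times. The exact two-sided permutation test gave p = 0.0286, which is the lowest value possible for 4 and 4 libraries. Adjusted over 10 ratio comparisons, it was 0.286. The groups did not overlap. A single comparison at this lowest p cannot reach an adjusted p under 0.05 over 10 comparisons, so the correction could not decide here. Without Sperm 4 the difference was -1.16 with an exact permutation p = 0.0571.

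Among testis stages the ratio varied less. Its log2 value averaged 1.29 ± 0.13 (Infant), 1.37 ± 0.24 (Pre-puber), 1.73 ± 0.12 (Puber) and 1.77 ± 0.42 (Adult; SD, n = 3, 3, 3 and 4). Differences between stages were 0.078 for Pre-puber against Infant, 0.36 for Puber against Pre-puber, 0.037 for Adult against Puber and 0.48 for Adult against Infant. Their exact permutation p-values were 0.70, 0.20, 0.914 and 0.114, where 3 against 3 libraries cannot go below 0.10 and 3 against 4 not below 0.0286. The groups overlapped in each of these 4 comparisons. Without Pre-puber 14 the difference was -0.045 for Pre-puber against Infant (exact permutation p = 0.70) and 0.49 for Puber against Pre-puber (exact permutation p = 0.10, the lowest possible with these libraries).

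The ratio of miR-96 to miR-183 was nearly level over the younger stages, with geometric means of 0.203 (Infant), 0.202 (Pre-puber) and 0.194 (Puber). In Adult it was 0.191 but scattered widely, from 0.107 in Adult 20 (5 counts of miR-96) to 0.486 in Adult 33 (26 counts). In Sperm it was 0.102, with 0.0836, 0.0791, 0.123 and 0.134 in Sperm 1, 2, 3 and 4. The log2 difference of Sperm against Adult was -0.90 (exact two-sided permutation p = 0.0857, adjusted p = 0.381), and the groups overlapped through Adult 20. The other 4 comparisons of this ratio gave differences from -0.088 to -0.0092 with exact p-values of 0.70 to 1. Without Pre-puber 14 the difference was -0.12 for Pre-puber against Infant (exact permutation p = 0.50) and 0.055 for Puber against Pre-puber (exact permutation p = 0.80).

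**Figure D4:**
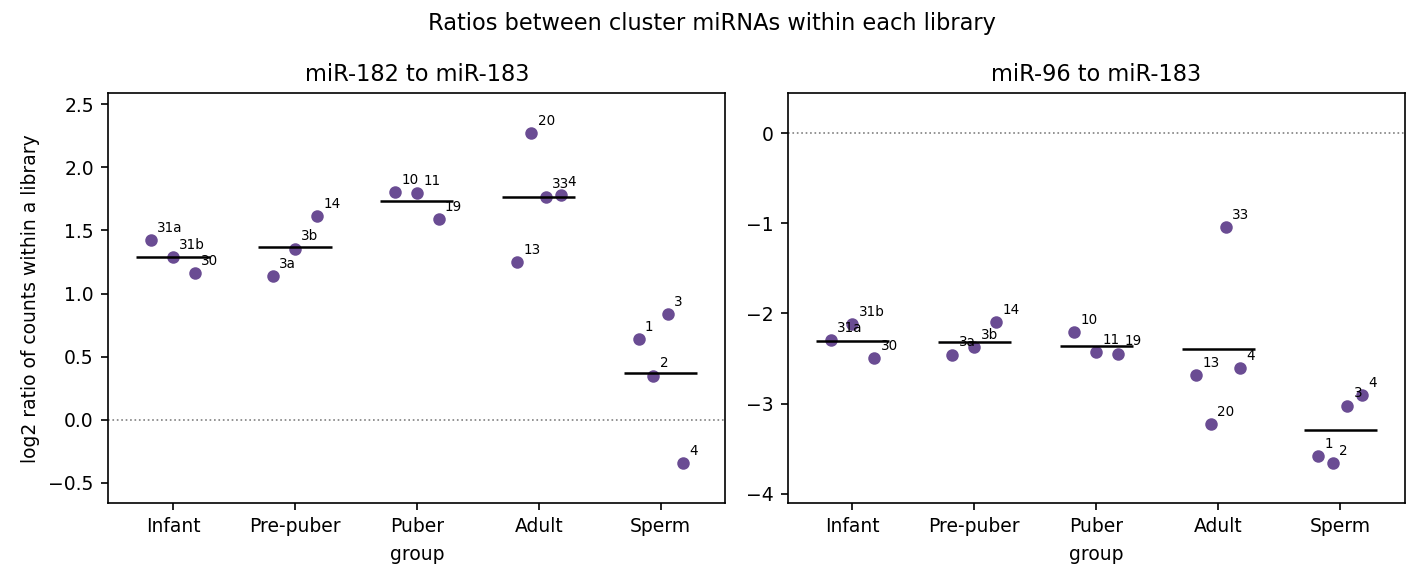
The log2 ratio of counts of miR-182 to miR-183 and of miR-96 to miR-183 within each of the 17 libraries, by group. Points are libraries labelled by number, bars are group means and the dotted line marks equal counts. The 4 Sperm libraries lie below the 13 testis libraries for miR-182 to miR-183, from -0.34 to 0.84 against 1.14 to 2.27.

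The members followed each other closely over the 13 testis libraries. Pearson's r of log2 CPM was 0.97 between miR-183 and miR-182, 0.93 between miR-183 and miR-96 and 0.88 between miR-96 and miR-182 (Spearman's rho 0.95, 0.91 and 0.87). Among 113 other miRNAs with a mean of at least 50 CPM, the 5 most like the mean of the members were miR-423-5p (r = 0.77), miR-1388 (0.77), miR-10a (0.67), miR-450b-5p (0.61) and miR-100 (0.56). These values are descriptions over libraries that share stages and depth, with no test.

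The miRNAs most like the cluster had a flatter course. miR-423-5p averaged 1876 ± 192 CPM (Infant), 2801 ± 306 (Pre-puber), 2324 ± 194 (Puber) and 1853 ± 558 (Adult; SD, n = 3, 3, 3 and 4). Its Pre-puber mean was the highest, which its choice by likeness to the cluster in these libraries makes likely. miR-1388 had 3125 ± 886, 4208 ± 1269, 3508 ± 1066 and 1820 ± 784 CPM in the same order. The most opposite were miR-708 (r = -0.72), miR-486-5p (-0.67) and miR-451 (-0.67). miR-486-5p and miR-451 are abundant in red blood cells, and miR-451 averaged 276 ± 329.7 CPM (Infant), 93.6 ± 82.9 (Pre-puber), 67.1 ± 30.7 (Puber) and 327.7 ± 466 (Adult). By rank they were less opposite, with Spearman's rho of -0.45 for miR-486-5p and -0.47 for miR-451. Other blood miRNAs of the list were not opposite to the cluster, with r = 0.48 for miR-150 and 0.019 for miR-142-5p.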

How the data were processed

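Small RNA was sequenced in 17 horse libraries, 13 of testis and 4 of sperm. Per the submitters' processing notes, the genome build was EquCab3.0 and Trimmomatic, a read trimmer, was among the tools. Which aligner, counting program and annotation release were used is not given in the sources used here. Per entry, the authors deposited whole read counts, and deposited RPM columns equal to the count over the column total, which were not tested. Each column was assigned through the number in a sample title. Adult 4 and Sperm 4 share a number and were told apart by column prefix, which is an inference. For names with more than 1 entry, the one with the highest total was kept.

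Counts of annotated miRNAs were tested with edgeR 4.0.16 in R 4.3.3 (quasi-likelihood F test, filterByExpr, TMM, Benjamini-Hochberg over all tested miRNAs, threshold 0.05). The 13 testis libraries were fitted together (184 miRNAs), and Sperm with Adult (162 miRNAs). Standard errors were derived from the F statistic. Levels are CPM after TMM. Ratios used counts plus 0.5 and exact two-sided permutation tests. The likeness of other miRNAs was taken on log2(CPM + 0.5). DESeq2 1.42.0 and limma-voom 3.58.1, other scalings and filters, and left-out libraries were alternatives. A run of the fits on simulated counts, with planted rises and falls in equal number, checked only the recovery and sign of these changes. No limit on false calls was set. The text names the 3 members, marker lists, and the 5 most and 3 least alike miRNAs. Members and lists were chosen with earlier results of these data known. A search for miRNAs or hairpins by shared sequence or position was not made, because the members' sequences and positions in the files' build were not in the sources used here.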

Additional observations from a re-analysis of the deposited data

How the results depend on the processing

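The number of members called was the same, or within 1.5 times, in most settings. It was 0 in place of 3 for Pre-puber against Infant with these groups fitted alone (26 of 168 miRNAs called), and 1 to 3 with 1 library left out. For Puber against Pre-puber it was 3 in place of 0 with all entries in the fit (198 of 916 called). For Adult against Puber it was 2 in place of 0 with these groups alone (19 of 176 called). For Puber against Infant it was 1 with DESeq2-type size factors or the groups alone, 2 with limma-voom or summed libraries, 3 with DESeq2 or no scaling, and 0 to 3 with 1 library left out, in place of 0. For Adult against Infant it was 1 with no scaling (105 of 184 called) and 2 with all entries (832 of 916 called). All entries in the fit moved the median log2 change by up to 5.78. In that fit the members were called in Pre-puber against Infant, as were 606 of 916 entries. Their log2 fold changes of 2.88 to 3.00 lay below the median of 4.18 over all entries.

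The signs that turned belonged to values that were not called. For Adult against Infant, miR-183 was 0.094 with DESeq2-type size factors and with DESeq2, 0.86 with no scaling and 0.24 with summed libraries, miR-96 was 0.75 with no scaling and 0.022 with summed libraries, and miR-182 was -1.23 with all entries. Leaving out 1 library gave -0.50 to 0.45, -0.74 to 0.20 and -0.14 to 1.11 for miR-183, miR-96 and miR-182 there, and -0.97 to 0.039 for miR-182 in Puber against Pre-puber. miR-96 was -0.11 for Puber against Infant with all entries. The log2 ratio of miR-96 to miR-183 was 0.10 with summed libraries for Pre-puber against Infant and 0.087 at a pseudocount of 2 for Adult against Puber. With 1 library left out it ran from -0.12 to 0.082 (Pre-puber against Infant), -0.13 to 0.055 (Puber against Pre-puber), -0.48 to 0.25 (Adult against Puber) and -0.54 to 0.19 (Adult against Infant), and that of miR-182 to miR-183 from -0.045 to 0.19 (Pre-puber against Infant) and -0.13 to 0.21 (Adult against Puber). The cause was not tested.

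Leaving out Adult 4 and Sperm 4 together, an alternative chosen after seeing the data, kept 3 members called for Sperm against Adult. That fit called 130 of 162 miRNAs. The same omission gave -1.16 for the ratio of miR-182 to miR-183 (exact permutation p = 0.10, the lowest possible for 3 and 3 libraries). No paired analysis was possible because the groups share fewer than 2 replicate numbers. Counts of miR-96 limit its ratios in Adult and Sperm.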

Other observations

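In human, miR-1271 shares its seed with miR-96. Whether the horse forms do was not looked up, and they were chosen after the values of the table were open. miR-1271a was not called over the 4 testis stages (edgeR adjusted p = 0.114). It fell in Adult against Pre-puber testis, by 0.96 ± 0.33 SE on the log2 scale (edgeR adjusted p = 0.0441), with 322, 222, 175 and 328 CPM in Adult 13, 20, 33 and 4, against 537, 423 and 569 CPM in the Pre-puber libraries 3a, 3b and 14. In Sperm against Adult its log2 fold change was -0.93 ± 0.51 and was not called (adjusted p = 0.0883), and its difference from the cluster members was not tested. miR-1271b had 0 to 11 counts per library and was not tested.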
